A study of Oncorhynchus mykiss with 6 samples.

Results

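The predicted microRNA (miRNA) candidates that were present in every library of rainbow trout dorsal skin were 77 of 469 candidates, in a table of 1426 entries. A candidate is an entry whose name starts with PC-, a small RNA for which the authors found no miRBase match and which they predicted from genome position and hairpin shape. It was counted here when its deposited count was above 0 in all 6 libraries, so the candidates were chosen by their measured counts, and their presence is not a result. The 6 libraries came from dorsal skin of female rainbow trout (Oncorhynchus mykiss) at 12 months after hatching, 3 from the yellow mutant (YR_S) and 3 from the wild type (WR_S), which were reared in 1 pond. The yellow mutant is a farmed colour strain with yellow skin and the wild type has black skin, and the mutated gene is not given in the sources used here. Each library was 1 dorsal skin, and the study asked how the skin of the strains differs in immunity. Of the 77 candidates, 36 were named as the 5p arm and 41 as the 3p arm of a hairpin.

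A miRNA is cut from a folded precursor by Drosha and Dicer, and 1 strand of the cut duplex is loaded into an Argonaute protein. Bases 2 to 8 from the 5′ end, the seed, choose most targets, so a shift of the start by a single base changes the seed. Variants of the same arm that differ in start, end or base are called isomiRs. A predicted candidate can be a miRNA that the database lacks for this species, an isomiR that was not matched, or a fragment of another RNA. Skin is rich in the epithelial miR-200, miR-203 and miR-205 families, which in mammals maintain epithelial identity and keratinocyte differentiation.

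The sequences that carry the results are given first, 5′ to 3′ as deposited, with the seed in capitals. The 10 most abundant candidates, in order of mean level, were these.
PC-3p-684_7462: tAACACTGtctggtaatgatgtc
PC-3p-720_6860: aTTCCCAGtgggatgaagctca
PC-3p-772_6138: cACAGTAGtctgcacattggttt
PC-5p-1953_1712: tGACTAAAtgtggatctgggtcg
PC-3p-2126_1522: tGGCTCAGttcagcagaaaccgt
PC-5p-12450_199: gCGGATCTccccagctacggtgctca
PC-3p-3956_715: aCTATATAtggagtaggctgtc
PC-3p-5677_474: gTGAAATGtttaggaccactcgt
PC-5p-3724_760: aTATTTGTgactctgaga
PC-5p-10456_242: aCCGGCTGgaacgtcaactgcgcc

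The next 4 are shown for their difference between the strains or because the study's regulatory networks name them.
PC-3p-5530_487: gTCTCAAGgctctgtgctacatta
PC-5p-24919_85: gCCCCACTgttgctctggcaacc
PC-3p-21208_105: aTGACCCGccgggcagcgt
PC-3p-28352_70: tTGGAAAGacggcacaagtaga

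Lengths ran between 18 and 26 nucleotides, with PC-5p-3724_760 the shortest and PC-5p-12450_199 the longest. Of the 77 candidates, 44 (57.1%) had 22 nucleotides and 69 (89.6%) had 21 to 23. The other 392 candidates had 21 to 23 nucleotides in 84.9% of cases, and the 647 database-matched entries above 0 in all 6 libraries in 82.1%. The first base, which Argonaute proteins of animals often favour as U (T in the table), was T in 39 candidates (50.6%), against 44.6% of the other candidates and 42.0% of those database-matched entries. The median GC content was 45.5% in all 3 sets. These shares are descriptions, since entries of 1 family are not independent.

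Presence in every library was uncommon among candidates. Of the 469 candidates, 138 were above 0 in 1 library only, 70 in 2, 70 in 3, 55 in 4, 59 in 5 and 77 (16.4%) in 6. Database-matched entries were above 0 in all 6 libraries in 647 of 957 cases (67.6%). The 59 candidates that missed a single library were at 0 in YR_S replicate 1 in 45 cases, and in each of the other libraries in 2 to 4 cases. YR_S replicate 1 was also the shallowest library, with 1442631 counts over all entries, against 4375641 and 4388665 counts in the other YR_S libraries and 4477917 to 5089802 counts in WR_S. The rule therefore leans on that library, in which the median candidate had 8 counts, against 25 to 31 counts in the other 5.

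**Figure D1:**
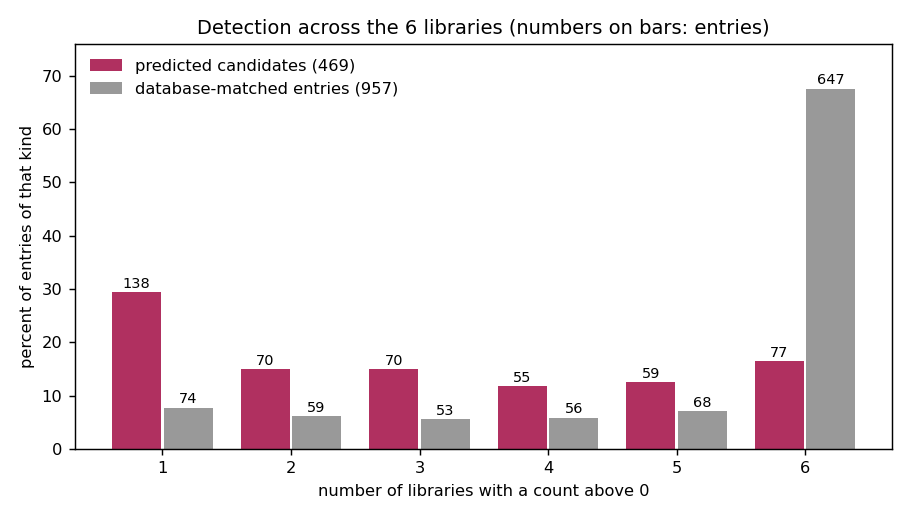
Percent of the 469 predicted candidates (red) and of the 957 database-matched entries (grey) by the number of libraries with a count above 0, with the number of entries on each bar. Candidates were spread over all 6 classes and most database-matched entries, 647, stood in the last one.

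Just inside the rule stood PC-3p-27360_74, PC-3p-16802_141 and PC-3p-23809_90, whose lowest counts were 2, 2.5 and 2.5, each in YR_S replicate 1. Just outside it, the most abundant candidate above 0 in exactly 5 libraries was PC-3p-3527_813. It had 100, 90 and 413 counts in YR_S and 214, 0 and 270 counts in WR_S replicates 1 to 3. PC-3p-16086_148 was likewise at 0 in WR_S replicate 2, with 37, 60 and 63 counts in YR_S and 89 and 32 counts in the other WR_S libraries. PC-5p-7030_376 was at 0 in YR_S replicate 1, with 38 and 23 counts in the other YR_S libraries and 94, 117 and 119 counts in WR_S. A count of 0 allows up to 3 counts, or 2.08 CPM in YR_S replicate 1 and 0.670 CPM in WR_S replicate 2, for counting error only. For these floors, CPM is the count divided by the summed counts of the library, scaled to 1000000. All CPM values below divide by the library size after TMM scaling instead.

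Markers of the labelled tissue were abundant. Entries of the miR-200, miR-203 and miR-205 families summed to 22781 to 34443 CPM in YR_S and 25916 to 36025 CPM in WR_S. WR_S replicate 3 stood apart in muscle and liver families. Its miR-1, miR-133, miR-206 and miR-499 entries summed to 12618 CPM, against 2008 to 4951 CPM in YR_S and 2806 and 6965 CPM in the other WR_S libraries. Its 2 entries of miR-122, a liver miRNA, summed to 3405 CPM, against 5.86 to 51.3 CPM in YR_S and 18.9 and 19.5 CPM in the other WR_S libraries. Entries of miR-451 and miR-144, which mark red blood cells, summed to 106 to 272 CPM in YR_S and 33.5 to 309 CPM in WR_S. Entries of miR-6236, miR-6240, miR-2478 and miR-11987, which are suspected fragments of structural RNA, summed to 759 to 1355 CPM in YR_S and 1058 to 1284 CPM in WR_S. The part of these sources in the results below was not tested, and calls are given without each library.

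The 77 candidates were a small share of the small RNA. They took 0.155% to 0.218% of the counts of a library, and all 469 candidates took 0.195% to 0.261%. Their summed level was 2046, 2259 and 1644 CPM in YR_S replicates 1 to 3, and 1864, 2056 and 1988 CPM in WR_S replicates 1 to 3. The groups overlapped, with means of 1983 ± 312 CPM for YR_S and 1969 ± 97.3 CPM for WR_S (SD, n = 3 each). The 3 most abundant candidates held 49.1% of the summed level and the first 10 held 74.0%. Averaged over the 6 libraries, 4 candidates were above 100 CPM, 19 lay between 10 and 100 CPM and 54 were below 10 CPM.

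The 3 leading candidates resembled miR-200b, miR-205a and miR-199a in sequence. PC-3p-684_7462 had 317, 331 and 241 CPM in the YR_S libraries, against 339, 557 and 369 CPM in those of WR_S. All 3 YR_S libraries lay below all 3 WR_S libraries, but the nearest of them, 331 and 339 CPM, were close. PC-3p-720_6860 had 326, 453 and 289 CPM in the YR_S libraries, against 329, 353 and 390 CPM in those of WR_S. Its groups overlapped fully and their means, 356 and 358 CPM, were near each other. PC-3p-772_6138 had 188, 393 and 195 CPM in the YR_S libraries, against 212, 234 and 308 CPM in those of WR_S, and its groups overlapped too.

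PC-5p-1953_1712, the most abundant candidate without a database relative, had 158, 267 and 184 CPM in the YR_S libraries, against 123, 150 and 127 CPM in those of WR_S. The YR_S libraries all lay above the WR_S libraries, the nearest being 158 and 150 CPM. The log2 fold change of 0.61 ± 0.28 (SE) had an unadjusted p of 0.0595 and an adjusted p of 0.5 in edgeR's quasi-likelihood test. PC-3p-2126_1522 had 123, 101 and 73.1 CPM in the YR_S libraries, against 83.0, 74.98 and 38.1 CPM in those of WR_S, with overlap. PC-5p-3724_760 had 50.1, 44.4 and 24.8 CPM in the YR_S libraries, against 53.9, 17.2 and 54.4 CPM in those of WR_S, so a single low WR_S library set its spread.

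PC-5p-12450_199 varied widely within each strain. It had 215, 42.3 and 23.1 CPM in the YR_S libraries, against 99.8, 28.5 and 29.9 CPM in those of WR_S. The high value of each strain was its replicate 1, and the means of 93.7 ± 106 CPM for YR_S and 52.7 ± 40.8 CPM for WR_S (SD, n = 3 each) were both set by it. Over the 77 candidates, the highest library exceeded the lowest by a median of 2.65 times, and between 1.29 and 10.5 times. Which library was highest varied, from 8 to 21 candidates for each YR_S library and from 6 to 17 for each WR_S library.

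**Figure D2:**
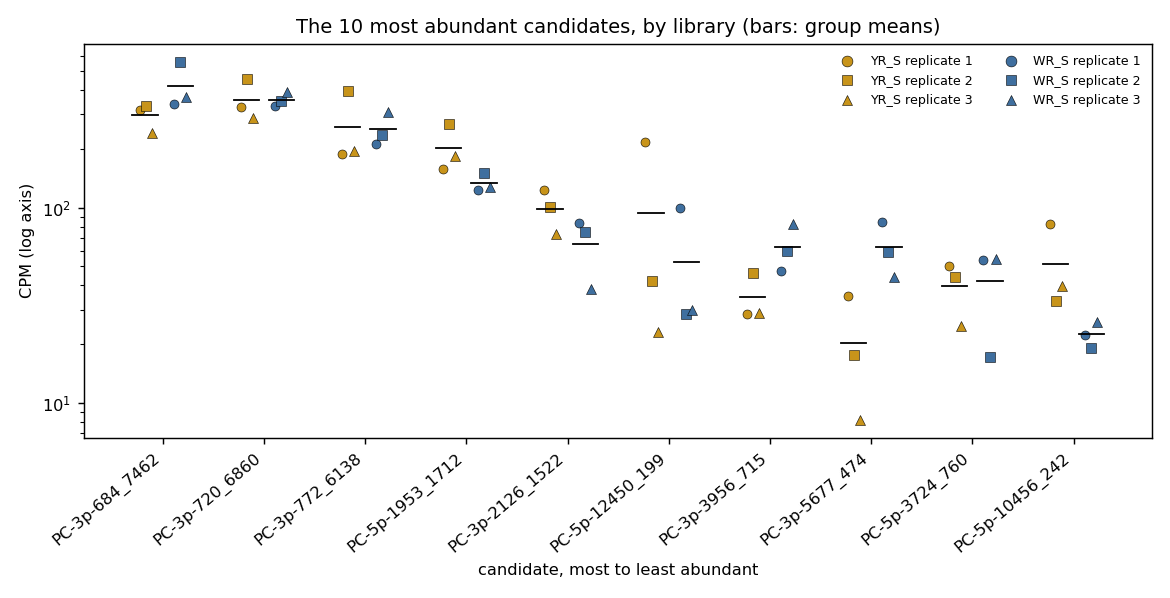
CPM on a log axis for the 10 most abundant candidates, with YR_S (yellow) left of WR_S (blue), a symbol per replicate and a bar at each group mean. PC-5p-12450_199 was highest in replicate 1 of both strains, with 215 CPM for YR_S and 99.8 CPM for WR_S, and 5 of the 10 had groups that did not overlap (PC-3p-684_7462, PC-5p-1953_1712, PC-3p-3956_715, PC-3p-5677_474 and PC-5p-10456_242). Groups did not overlap in 13 of the 77 candidates (16.9%), beside 188 of the 1085 entries tested (17.3%).

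The strains were compared with edgeR's quasi-likelihood test over all 1085 entries above 0 in at least 3 libraries, which all 77 candidates passed by their choice. At the study's thresholds, an unadjusted p below 0.05 and a log2 fold change of at least 1 in size, 5 of the 77 candidates (6.49%) were called, beside 8.2% of all entries tested. Database-matched entries above 0 in all 6 libraries, to which the same presence rule applies, were called in 42 of 647 cases (6.49%). Of the 5 candidates, 3 were higher in YR_S (3.9%, beside 1.75% of all entries) and 2 lower (2.6%, beside 6.45% of all entries). With summed counts and no further scaling factor the split was 3 higher and 4 lower. A share this near the background is not a result about the candidates as a set.

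No candidate and no entry had an adjusted p below 0.05 in edgeR. The unadjusted p was below 0.05 for 6 of the 77 candidates (7.79%) and for 113 of the 1085 entries (10.4%), and DESeq2 gave an adjusted p below 0.05 for 1 candidate and for 36 entries. The median log2 fold change was 0.04 over the candidates, −0.03 over all entries tested and 0.05 over the 647 database-matched entries. It was above 0 in 42 candidates (54.5%, beside 47.4% of all entries), and ranged between −1.66 and 1.98. All YR_S libraries lay above all WR_S libraries in 7 candidates (9.09%, beside 8.29% of all entries) and below them in 6 (7.79%, beside 9.03%).

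**Figure D3:**
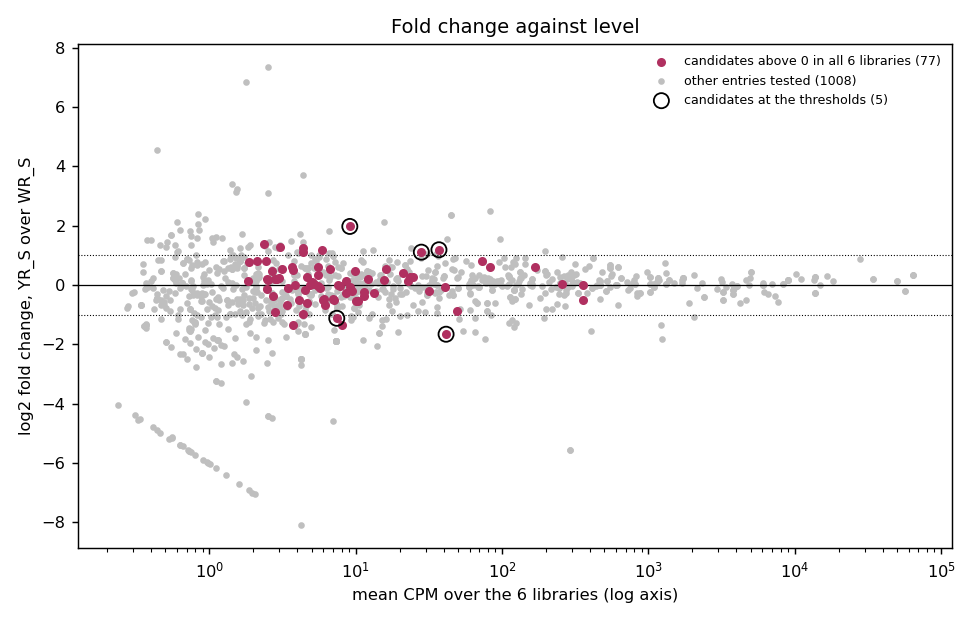
Log2 fold change of YR_S over WR_S against mean CPM on a log axis for the 77 candidates (red) and the 1008 other entries tested (grey), with dotted lines at a log2 fold change of 1 and −1 and rings around the 5 candidates at the thresholds. The candidates lay between −1.66 and 1.98, on both sides of 0.

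PC-3p-5677_474 was the more abundant of the 2 lower candidates. It had 35.2, 17.6 and 8.20 CPM in the YR_S libraries, against 84.6, 59.0 and 44.1 CPM in those of WR_S, and the groups did not overlap. Its log2 fold change was −1.66 ± 0.54 (SE), with an unadjusted p of 0.0146 and an adjusted p of 0.273 in edgeR, and this was the candidate with an adjusted p below 0.05 in DESeq2 (0.0496). The call was lost without YR_S replicate 2, where edgeR's unadjusted p was 0.0542, and was kept without each of the other 5 libraries and under all 7 other alternatives. In bulk skin, fewer cells of a type and less RNA per cell cannot be told apart.

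The second lower candidate was PC-3p-21208_105, a 19-nucleotide sequence that the study's networks name. It had 2.60, 4.34 and 6.75 CPM in the YR_S libraries, against 9.63, 8.496 and 12.7 CPM in those of WR_S, with no overlap. The log2 fold change was −1.12 ± 0.47 (SE), with an unadjusted p of 0.0438 and an adjusted p of 0.453 in edgeR. Its call stood without YR_S replicate 3 and was lost without each of the other 5 libraries, where the log2 fold change lay between −1.32 and −0.97 and the unadjusted p between 0.0503 and 0.109. PC-3p-3956_715 was lower by less than the threshold. It had 28.6, 46.4 and 28.9 CPM in the YR_S libraries, against 47.4, 59.9 and 82.2 CPM in those of WR_S, without overlap by a margin of 46.4 against 47.4 CPM, and its log2 fold change was −0.86 ± 0.34 (SE; unadjusted p = 0.0369, adjusted p = 0.418, edgeR). It reached the thresholds without WR_S replicate 1 (−1.10, unadjusted p = 0.0163), without YR_S replicate 2 (−1.13, unadjusted p = 0.0151) and when entries of 1 sequence were merged (−1.01, unadjusted p = 0.0206).

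The 3 higher candidates were each highest in YR_S replicate 1, the shallowest library. PC-3p-5530_487 had 52.7, 26.0 and 36.7 CPM in the YR_S libraries, against 18.3, 16.6 and 18.2 CPM in those of WR_S. The groups did not overlap and the WR_S libraries were close together. Its log2 fold change was 1.11 ± 0.35 (SE), with an unadjusted p of 0.0129 and an adjusted p of 0.273 in edgeR. It fell to 0.74 (unadjusted p = 0.0722) without YR_S replicate 1, and the call was also lost without WR_S replicate 2 (1.001, unadjusted p = 0.0617) and, by size alone, when entries of 1 sequence were merged (0.96).

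PC-5p-10456_242, a 24-nucleotide candidate, had 82.0, 33.2 and 39.8 CPM in the YR_S libraries, against 22.2, 19.1 and 26.0 CPM in those of WR_S, and the groups did not overlap. Its log2 fold change was 1.19 ± 0.41 (SE), with an unadjusted p of 0.0188 and an adjusted p of 0.296 in edgeR. Without YR_S replicate 1 it was 0.61 (unadjusted p = 0.112), and without WR_S replicate 1 or 2 the unadjusted p was 0.0574 and 0.0821. PC-5p-24919_85 had 31.2, 3.57 and 9.16 CPM in the YR_S libraries, against 3.27, 2.97 and 4.45 CPM in those of WR_S. YR_S replicate 2 lay inside the range of WR_S, so its groups overlapped. Its log2 fold change of 1.98 ± 0.76 (SE; unadjusted p = 0.0314, adjusted p = 0.385, edgeR) was 0.76 without YR_S replicate 1 (unadjusted p = 0.241), and the unadjusted p was 0.0773, 0.0962 and 0.0533 without WR_S replicates 1, 2 and 3.

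**Figure D4:**
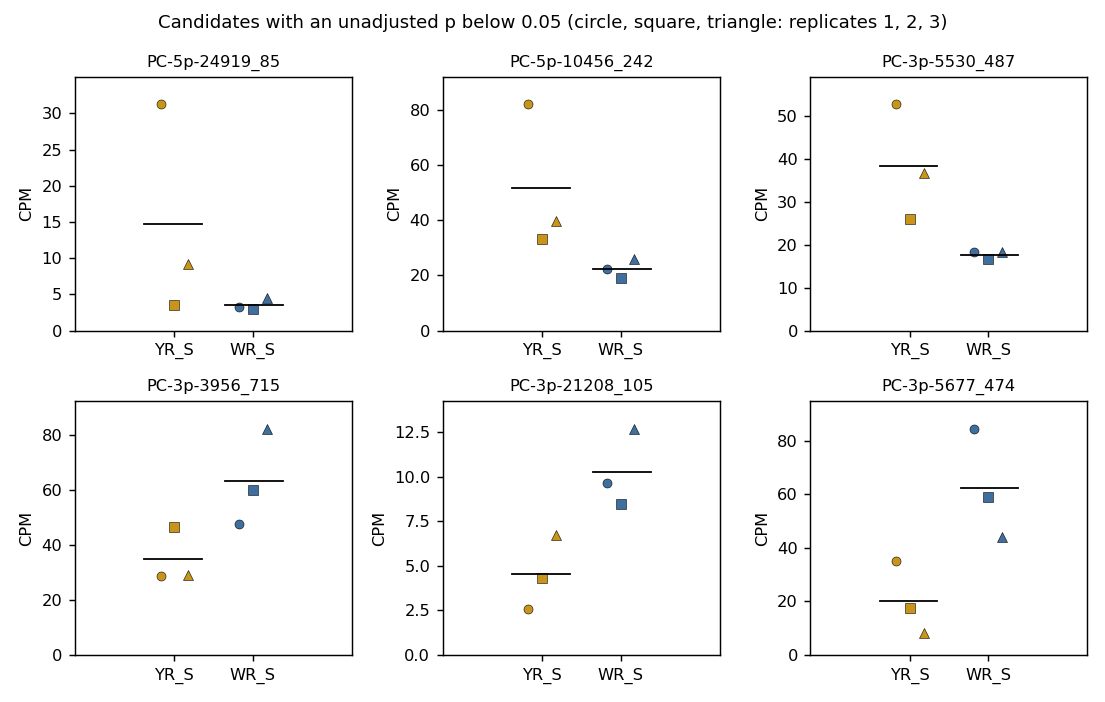
CPM per library, on axes that start at 0, for the 6 candidates with an unadjusted p below 0.05 in edgeR, with YR_S (yellow) left of WR_S (blue), a symbol per replicate and a bar at each group mean. The upper row holds the 3 higher candidates, each topped by YR_S replicate 1 (31.2, 82.0 and 52.7 CPM), and the lower row the 3 lower ones.

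The study's networks name 6 candidates, of which 2 were above 0 in all 6 libraries. Besides PC-3p-21208_105 this was PC-3p-28352_70, which had 3.26, 5.10 and 4.58 CPM in the YR_S libraries, against 1.35, 1.70 and 2.33 CPM in those of WR_S. The groups did not overlap, and the log2 fold change of 1.27 ± 0.58 (SE) had an unadjusted p of 0.0589 and an adjusted p of 0.5 in edgeR. With only entries of a mean count of at least 10 tested, it reached the thresholds (1.22, unadjusted p = 0.0437). That was 1 of the 7 alternatives that kept all libraries. It was called in 0 of the 6 fits without 1 library, with an unadjusted p of 0.0570 to 0.184 in edgeR. Its counts were low, with 5, 20 and 19 in YR_S and 7, 8 and 11 in WR_S. Those candidates were named by the study from these same libraries, so their direction is not independent evidence. The other 4, PC-5p-43254_34, PC-3p-41055_38, PC-3p-71020_12 and PC-5p-48865_27, were above 0 in 3 libraries only and so were not among the 77.

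Beyond their presence, 27 candidates resembled a database-matched entry in sequence. A relative was taken as a database-matched entry that overlapped the candidate over at least 18 bases, without gaps, with at most 2 mismatches. Such a relative was found for 27 of the 77 candidates (35.1%), against 27 of the other 392 candidates (6.89%). In 14 of the 27 the nearest relative had the same start and bases and differed in length only, in 9 the start was shifted, and in 4 a base differed. Both sets were searched against the same table, and the candidates differ from the others in level as well, with a median of 6.06 CPM against 0.455 CPM. The difference between the shares was not tested, since entries of 1 family are not independent.

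The pairs of the most abundant candidates are set out with the nearest entry under each candidate.
PC-3p-684_7462: tAACACTGtctggtaatgatgtc
ssa-miR-200b-3p_R-1: tAACACTGtctggtaacgatgt
PC-3p-720_6860: aTTCCCAGtgggatgaagctca
ssa-miR-205a-3p: aTTCCCAGtgggatgaagctc
PC-3p-772_6138: cACAGTAGtctgcacattggttt
ola-miR-199a-3p_R+1_1ss22AT: aCAGTAGTctgcacattggtttt
PC-3p-2126_1522: tGGCTCAGttcagcagaaaccgt
ssa-miR-24b-3p: tGGCTCAGttcagcagaaaccg
PC-3p-5677_474: gTGAAATGtttaggaccactcgt
ssa-miR-203b-3p_L+1: gTGAAATGtttaggaccactcg

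Counted from 1 at the candidate's 5′ end, with the candidate's base first, PC-3p-684_7462 differed from the miR-200b-3p entry by T17C and was 1 base longer. It shared the seed AACACTG with entries named miR-200b-3p and miR-141-3p. They belong to the miR-200 family, which in mammals restrains the transition of epithelial cells to mesenchymal ones. The entry ssa-miR-200b-3p_R-1 had 5151, 3554 and 2797 CPM in the YR_S libraries, against 6116, 6034 and 4041 CPM in those of WR_S, with overlap. The candidate stood at 7.78% of its level, and the log2 fold changes were −0.51 ± 0.27 for the candidate and −0.49 ± 0.28 for the entry (SE), neither of which had an adjusted p below 0.05 in edgeR.

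PC-3p-720_6860 was the 3p arm of the miR-205a entry, an epithelial miRNA, with a further base at the 3′ end. It was the more abundant form, with 152% of the level of ssa-miR-205a-3p, which had 230, 276 and 186 CPM in the YR_S libraries, against 243, 215 and 261 CPM in those of WR_S. Neither differed between the strains beyond the spread, with log2 fold changes of −0.01 ± 0.25 and −0.06 ± 0.24 (SE). PC-3p-772_6138 started 1 base before miR-199a-3p, a miRNA of mesenchymal cells in mammals, so that its seed was ACAGTAG in place of CAGTAGT. It had 78.3% of the level of the nearest entry and 1.86% of that of the most abundant related entry, at 13687 CPM over the 6 libraries.

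PC-3p-2126_1522 was miR-24b-3p with a further 3′ base and had 14.7% of its level. PC-3p-5677_474 likewise added a single 3′ base to ssa-miR-203b-3p_L+1, an entry of the miR-203 family, which drives keratinocyte differentiation in mammals. The entry ssa-miR-203b-3p_L+1 had 338, 179 and 109 CPM in the YR_S libraries, against 874, 499.5 and 440 CPM in those of WR_S, and its groups did not overlap. Its log2 fold change of −1.54 ± 0.45 (SE; unadjusted p = 0.00946, adjusted p = 0.273, edgeR) stood beside −1.66 for the candidate, which had 10.2% of its level. The order of the libraries within each strain was the same in both, replicate 1 highest and replicate 3 lowest. The entry stayed at the thresholds without each of the 6 libraries. The candidate and the entry are 2 forms of nearly the same sequence under separate names, and are not independent results. The most abundant related entry, ssa-miR-203a-3p, had the same seed and 1 mismatch to the candidate. Its levels were 1144, 680 and 375 CPM in the YR_S libraries, against 929, 915 and 986 CPM in those of WR_S, with overlap. Its log2 fold change was −0.36 ± 0.37 (SE; unadjusted p = 0.353, adjusted p = 0.849, edgeR). Its YR_S replicates 2 and 3 lay below all WR_S libraries and replicate 1 above them. These values do not settle whether ssa-miR-203a-3p fell as well.

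Further candidates, shown for their seed, shared it with a database-matched entry above 0 in all 6 libraries (the first 5) or, in pairs, with each other (the last 4).
PC-5p-3893_728: tGTAAACAtccccgactggaatt
PC-5p-5443_496: gACTTGGTctaagctcctcagct
PC-5p-6290_425: tGAGGTAGttggttgtattgtta
PC-5p-14210_171: cAGGACTTagccagctttgtga
PC-3p-7431_353: tGTGCAAAcccaagcaaaactgt
PC-3p-8548_305: cCAGTATGgcttgtgctgctaac
PC-3p-11371_220: cCAGTATGgcttgtgctgctcca
PC-5p-13500_182: tTAGCAGCacatcattactggt
PC-5p-26567_77: cTAGCAGCgcatcatggtttga

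Of the 77 candidates, 21 (27.3%) had the seed of a database-matched entry above 0 in all 6 libraries, against 28 of the other 392 candidates (7.14%). All of the 21 but PC-5p-24919_85 and PC-3p-27726_72 were among the 27 with a relative, so this is largely the same observation. The sets also differ in level, with a median of 6.06 CPM against 0.455 CPM, and the difference between the shares was not tested. GTAAACA in PC-5p-3893_728 is the miR-30 seed, GAGGTAG in PC-5p-6290_425 that of let-7, a family known for its part in developmental timing, and GTGCAAA in PC-3p-7431_353 that of miR-19, a member of the miR-17 to miR-92 cluster. PC-5p-5443_496 had the seed of miR-7132-5p. PC-5p-14210_171 had the seed of ssa-miR-27a-2-5p and started 1 base before miR-27a-5p. These 5 ranged between 16.03 and 31.5 CPM over the 6 libraries, had overlapping groups, and their log2 fold changes lay between −0.21 and 0.55 with unadjusted p of 0.268 to 0.731 in edgeR.

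The 77 candidates held 75 distinct seeds, so that 2 pairs shared one. PC-3p-8548_305 and PC-3p-11371_220, both with CAGTATG, matched the 3p arm of mir-457a, and had 13.3 and 9.49 CPM over the 6 libraries, above the 2.05 CPM of that entry. The mir-457a entry has the same seed but was at 0 in YR_S replicate 2, so it was outside the seed count above. Counted from the 5′ end of PC-3p-8548_305, that candidate differed from the entry by A21C and A22C. PC-5p-13500_182 and PC-5p-26567_77, both with TAGCAGC, each carried a further 5′ base before miR-457 and miR-15b, which moved their seed from that of their relatives. They stood at 0.674% and 0.446% of the level of those entries. Among the candidates themselves, PC-3p-16802_141 started 2 bases before PC-3p-14215_171 with no mismatch over 20 bases, and PC-5p-28483_70 differed from PC-5p-28495_70 by A5G alone, counted from the 5′ end of the first.

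Against the most abundant relative within 2 mismatches, 24 of the 27 candidates were lower and 3 were higher. That relative was picked for its level, which by itself favours candidates that lie below it. The median candidate had 4.94% of its level and the lowest 0.173%, which was PC-5p-3893_728 beside an entry of miR-30b-5p at 18254 CPM. Under 20% of the relative's level were 22 of the 27, and under 1% were 6. The 3 above their relative were PC-3p-720_6860, PC-3p-8548_305 and PC-3p-11371_220. Against the nearest entry in sequence, PC-5p-3893_728, PC-5p-6290_425 and PC-3p-21268_105 were higher as well, at 548%, 2535% and 212% of its level. Those nearest entries were scarce, with strain means between 0.765 and 5.85 CPM. The remaining candidates were lower than their nearest entry. Summed, the 27 candidates had 1200, 1518 and 1026 CPM in the YR_S libraries, against 1267, 1488 and 1351 CPM in those of WR_S. The 50 without a relative had 846, 741 and 618 CPM in the YR_S libraries, against 597, 568 and 636 CPM in those of WR_S. Both sums overlapped between the strains.

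**Figure D5:**
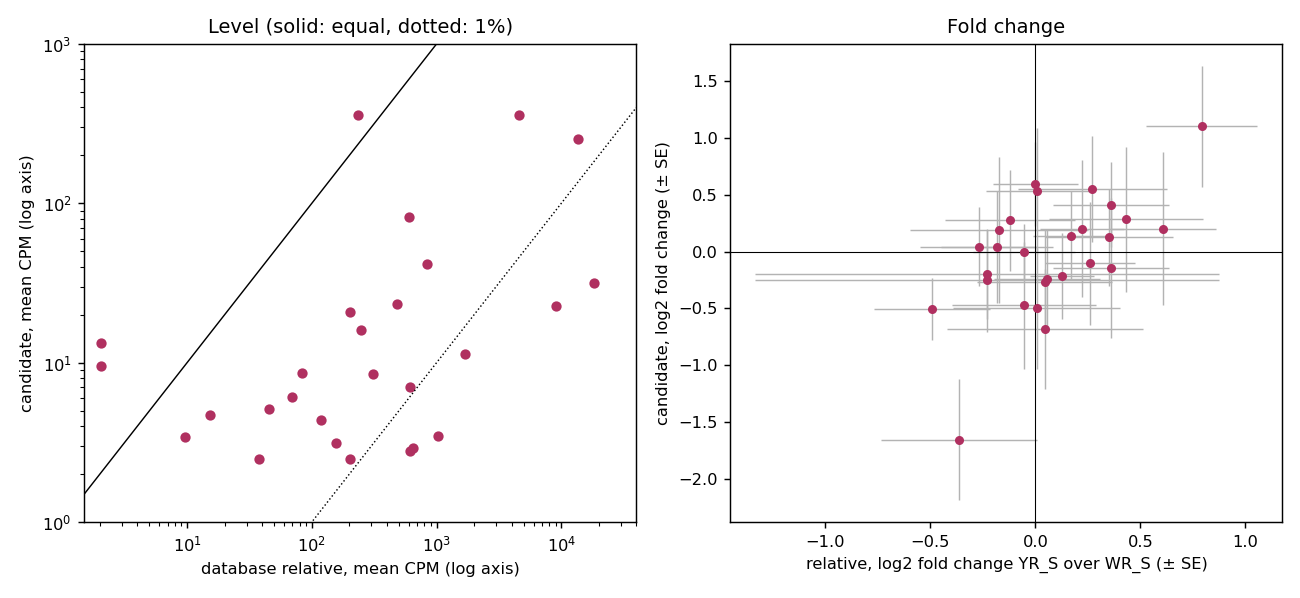
For the 27 candidates with a database relative, mean CPM over the 6 libraries against that of the most abundant relative on log axes (left; solid line, equal levels; dotted line, 1%), and log2 fold change of YR_S over WR_S against that of the relative (right; bars, SE). On the left 24 candidates lie below the line of equal levels, and on the right the lowest candidate is PC-3p-5677_474 at −1.66 and the highest PC-3p-25001_84 at 1.10. The log2 fold changes of candidate and relative had the same sign in 15 of the 27 pairs.

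Among the less abundant of the 27, PC-3p-25001_84 added a 3′ base to miR-33b-3p, an arm of a miRNA that in mammals lies in an intron of a sterol regulatory gene. It had 5.21, 7.27 and 5.43 CPM in the YR_S libraries, against 2.50, 1.81 and 4.02 CPM in those of WR_S, and the groups did not overlap. Its log2 fold change was 1.10, with an unadjusted p of 0.0729 in edgeR, and it was chosen for description after its values were seen. The entry ssa-miR-33b-3p had 138, 170 and 144.4 CPM in the YR_S libraries, against 92.5, 67.3 and 101 CPM in those of WR_S, with a log2 fold change of 0.79 ± 0.26 (SE; unadjusted p = 0.0171, adjusted p = 0.277, edgeR). The entry's unadjusted p was 0.0859 without WR_S replicate 2 and 0.0509 without YR_S replicate 3.

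Pairing with another entry, as the 2 arms of a hairpin would pair, was examined next. A partner was an entry whose name does not give the candidate's own arm, with a predicted duplex energy of −25 kcal/mol or lower. Some partner names, such as cgr-miR-3074, give no arm. Partners were found for 18 of the 77 candidates (23.4%), against 82 of the other 392 (20.9%), and the difference between these shares was not tested. For 11 of the 18 the partner list held a database-matched entry and for 6 it held another of the 77. Whether a pair is the 2 arms of a hairpin or comes from opposite strands was not tested, since genome positions were not analysed. The pairs with the longest runs of exact complement, among those whose partner was above 0 in all 6 libraries, are shown with the candidate first.
PC-5p-12163_204: aTACCTATagacacgagcttgt
dre-miR-100-2-3p: cAAGCTCGtgtctataggtatg
PC-3p-2126_1522: tGGCTCAGttcagcagaaaccgt
cgr-miR-3074: gTTCCTGCtgaactgagccagt
PC-5p-19674_116: tCCCAGATctgctttgtgctgt
PC-3p-29741_65: cAGCACAAgcagatctggggt

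PC-5p-12163_204 was the exact complement of dre-miR-100-2-3p over 21 bases, with a duplex energy of −36.8 kcal/mol. It had 8.46, 8.93 and 9.16 CPM in the YR_S libraries, against 8.28, 8.496 and 11.2 CPM in those of WR_S, while the entry had 43.0, 125 and 73.9 CPM in the YR_S libraries, against 70.5, 57.9 and 142 CPM in those of WR_S. Both overlapped between the strains, and the candidate varied far less across libraries than the entry. PC-3p-2126_1522 was the exact complement of cgr-miR-3074 over 16 bases; in mammals miR-3074 is annotated on the strand opposite a miR-24 hairpin. The entry cgr-miR-3074 had 5.86, 6.12 and 9.40 CPM in the YR_S libraries, against 12.1, 15.5 and 12.7 CPM in those of WR_S, and did not overlap, whereas the candidate did.

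PC-5p-19674_116 and PC-3p-29741_65 were both among the 77 and paired over 20 bases, 13 of them in 1 run, at −35.6 kcal/mol. PC-5p-19674_116 had 4.56, 2.81 and 3.86 CPM in the YR_S libraries, against 6.55, 3.61 and 6.57 CPM in those of WR_S. PC-3p-29741_65 had 3.26, 1.79 and 4.22 CPM in the YR_S libraries, against 2.12, 1.70 and 3.07 CPM in those of WR_S. Both candidates stood at similar levels and overlapped between the strains. PC-5p-31942_58 with PC-3p-15410_155 paired over 17 bases, with a longest exact run of 5, at −28.7 kcal/mol. PC-5p-13500_182 with PC-3p-8548_305 paired over 18 bases, with a longest exact run of 11, at −27.0 kcal/mol. PC-5p-31942_58 had lower energies with candidates outside the 77, namely PC-3p-74466_10 (−36.8 kcal/mol) and PC-3p-30381_63 (−32.6 kcal/mol). Neither a relative nor a partner was found for 41 of the 77 candidates, among them PC-5p-1953_1712, PC-3p-3956_715, PC-3p-5530_487 and PC-5p-10456_242.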

How the data were processed

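Dorsal skin of 3 YR_S and 3 WR_S trout was made into small RNA libraries (TruSeq) and read from 1 end. The authors cleaned the reads with ACGT101-miR, which discards adapter artefacts and other classes of RNA, looked the tags up in miRBase and ran Mireap on tags without a match to predict candidates. The build of the trout genome used for the prediction is not given in the sources used here, and genome positions, precursors and UTRs were not analysed here.

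The authors deposited an estimated count per entry and library, in which a read that fits several entries is divided among them. Of the candidates' values, 15.4% were not whole (tolerance 1e-06), in 22 of the 77 candidates, and no candidate shared its sequence with another entry. A normalized signal that the authors deposited beside it is each count multiplied by a constant of its library, namely 2.34, 0.888 and 0.911 in YR_S and 0.732, 0.833 and 0.842 in WR_S, replicates in order. The table also holds the authors' fold ratio and p-value per entry, which were not used, and 1 line that names no entry and was left out. All per-sample columns matched a sample.

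Estimated counts were rounded to whole numbers and tested with edgeR's quasi-likelihood test (edgeR 4.0.16, limma 3.58.1, R 4.3.3), two-sided, with TMM scaling, on entries above 0 in at least 3 libraries, with Benjamini-Hochberg adjustment over the 1085 entries. CPM values other than the floors use the TMM-scaled library size. Fold changes are YR_S over WR_S, and the SE is their size over the square root of F. The fit was tested on simulated data. At an adjusted p below 0.05 it found 48.9% of changes of 4 times and 66.2% of changes of 8 times. Among entries with a mean count of at least 10 these shares were 68.5% and 86.0%. Of the fit's calls, 4.77% were false. Many entries were changed at once in the simulation, which eases the adjustment, so the shares can be lower where few entries differ. The fit can thus miss differences of that size. The alternatives were RLE scaling, summed counts with no further factor, no filter beyond above 0 in 1 library, a mean count of at least 10, DESeq2 1.42.0, merged identical sequences, a replicate block and each library left out. Depth ran between 1442631 and 5089802 counts per library. Duplex energies came from RNAduplex (ViennaRNA 2.7.2, Python 3.11.15), with entries whose names give the same arm left out.

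Named with values were the 10 most abundant candidates, those at the thresholds, those in the study's networks, up to 12 that share a seed with another entry, and those next to the rule. The candidates, the lists and the rules were chosen with earlier results of these data known. No library pair of 1 strain agreed within sampling noise. Each library is a separate fish, and the p-values test the strain difference against the spread between these fish. That spread was estimated for each entry with information from all entries tested. Floors cover counting error only, whereas the SD and SE values include the spread between fish.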

Additional observations from a re-analysis of the deposited data

How the results depend on the processing

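The count of candidates at the study's thresholds was 5, and was higher, 6 with RLE scaling and 7 under each of the other 6 alternatives that kept all libraries. PC-5p-28495_70 and PC-3p-15543_154, named after their values were seen, were called under 6 and 5 of those 7. Without 1 library it ranged from 1 (without WR_S replicate 2) to 8 (without YR_S replicate 3), with 3 without WR_S replicate 3 and 2 without YR_S replicate 1. Candidates tested numbered 77, or 71 with a mean count of at least 10. Of all 1085 entries tested, 89 were at the thresholds. This count was 89 with RLE scaling, 91 with no further factor, 77 with the replicate block and 87 in DESeq2. It was 106 of 1426 with no filter and 85 of 949 with merged sequences. With a mean count of at least 10 it was 55 of 752. Without 1 library it ranged from 56 of 1012 (without WR_S replicate 2) to 106 of 1030 (without YR_S replicate 2). It was 76 of 1001 without WR_S replicate 3, 104 of 1072 without YR_S replicate 1 and 95 of 1028 without YR_S replicate 3. An adjusted p below 0.05 was reached by 36 entries and 1 candidate in DESeq2, and by none in edgeR under any alternative run; the cause was not tested. The median log2 fold change of the candidates stayed between −0.11 and 0.06, and the summed level of the candidates had a log2 ratio of 0.01, −0.06 with RLE scaling and −0.09 with no further factor.

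Some log2 fold changes changed sign. PC-3p-772_6138 was −0.043 with RLE scaling, −0.042 in DESeq2, −0.082 with no further factor, −0.057 with no filter, −0.021 with a mean count of at least 10, −0.029 with the replicate block and −0.11 with merged sequences. In the same order of settings, PC-3p-27360_74 was −0.050, −0.044, −0.12, −0.075, −0.042, −0.026 and −0.11. PC-5p-6290_425 was −0.0054 with merged sequences and PC-5p-3724_760 was 0.030 with the replicate block. Leaving out 1 library gave ranges across 0 of −0.22 to 0.043 for PC-3p-720_6860, −0.39 to 0.11 for PC-3p-772_6138, −0.81 to 1.64 for PC-5p-12450_199 (0.81 with all libraries, negative without YR_S replicate 1), −0.54 to 0.11 for PC-5p-3724_760, −0.59 to 0.013 for PC-5p-3893_728, −0.41 to 0.57 for PC-5p-5443_496, −0.26 to 0.22 for PC-5p-6290_425, −0.55 to 0.11 for PC-3p-8548_305, −0.56 to 0.045 for PC-5p-13500_182, −0.32 to 0.26 for PC-3p-27360_74, −0.14 to 0.47 for PC-3p-23809_90 and −0.27 to 0.44 for PC-3p-16802_141.

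In the labels, libraries of the 2 strains share only a replicate number. The deviations of same-numbered libraries correlated at 0.16, 0.06 and 0.30 over 752 entries. Those of libraries with different numbers correlated at −0.21 to 0.05, below each of the same-numbered values. Deviations from a strain's own mean cancel out across its libraries, so positive same-numbered values push the others down. The contrast is therefore not separate support for a link between same-numbered libraries. Whether same-numbered libraries share a processing step was not tested. With the number as a replicate block, 77 entries and 7 candidates were at the thresholds and none had an adjusted p below 0.05. At these depths 54 candidates below 10 CPM rest on few counts, with a median candidate count of 8 in YR_S replicate 1.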

Other observations

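The number that ends a candidate's name looks like a read count but did not match the summed count for most of the 77 candidates. It equalled the summed count of the 6 libraries in 8 of them, was above it in 12 and below it in 57. Over all 469 candidates it equalled the summed count in 218. For PC-3p-684_7462 the name gives 7462 and the counts sum to 8909, and for PC-5p-12450_199 the name gives 199 and the counts sum to 1386. What the number stands for is not given in the sources used here.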
